A study of Mus musculus with 6 samples.

Results

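The 10 genes described here encode enzymes that cut or cross-link the extracellular matrix and the inhibitors that hold the cutting enzymes in check. They are the proteases Mmp2, Mmp13, Mmp14 and Adamts1, the tissue inhibitors of metalloproteinases Timp1, Timp2 and Timp3, and the lysyl oxidases Lox, Loxl1 and Loxl2. They were taken by symbol, 1 row each, from a table of read counts over 52550 mouse gene identifiers, so all 10 of the named genes were found. They were listed by name with earlier results of these data known, so counts over them are descriptions and not independent evidence.

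Liver RNA was compared between 3 Slc7a11-LTG mice (TG) and 3 control mice (WT). All 6 animals were male, 8 weeks old, and had eaten the MCD diet, which is deficient in methionine and choline, for 1 week, so the diet is shared by both groups and no other diet was analysed here. LTG is not spelled out in the labels, and the promoter or cell type that drives the transgene is not given in the sources used here. Each library comes from 1 mouse of its own, and the livers were whole tissue.

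Collagen and elastin fibres are stiffened outside the cell by lysyl oxidases, copper enzymes that oxidise lysine side chains so that neighbouring chains can be linked. Matrix metalloproteinases are zinc enzymes made as inactive precursors, and they cut collagens, gelatin and other matrix proteins once the precursor part is removed. TIMPs bind the active site of these proteases, and in a scarring liver the balance of proteases, inhibitors and cross-linking enzymes, made largely by stellate cells and macrophages, is known to bear on whether scar matrix builds up or is cleared.

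Slc7a11, the gene named in the transgene, had 4416, 1377 and 2907 CPM in TG livers 1 to 3, against 2.92, 3.33 and 10.6 CPM in WT livers 1 to 3. CPM here are read counts scaled to a common library size with the TMM factors of edgeR. The 6 libraries held between 16016640 and 17463329 counts. Hepatocyte markers summed to between 90860 and 108900 CPM in TG livers and between 93610 and 174300 CPM in WT livers, above every other marker list in each library. Some libraries stood apart. Macrophage markers summed to 2005, 3598 and 625 CPM in TG livers 1 to 3, against 415, 335 and 581 CPM in WT livers 1 to 3, so the third TG liver lay near the WT livers. All 12 macrophage markers were higher in TG livers at an unadjusted p under 0.05, beside 8.68% of all tested genes. None passed edgeR's adjusted p, and DESeq2 called 11 of the 12 higher, beside 2.74% of all genes with a DESeq2 adjusted p. The median log2 fold change of the 12 markers was 2.27. Neutrophil markers summed to 137, 266 and 5.54 CPM in TG livers, against 8.19, 3.03 and 5.72 CPM in WT livers, and the 5 tested had a median log2 fold change of 2.39. The immediate early gene Fos stood at 310, 403 and 283 CPM in TG livers, against 3.05, 318 and 176 CPM in WT livers, so the first WT liver was far below the rest. In whole tissue, fewer cells of a type and less RNA per cell cannot be told apart. The part of these differences in the results on the 10 genes was not tested, and values without each library are given where they matter.

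Of the 10 genes, 9 had enough reads to be tested and Timp1 did not. No member passed edgeR's quasi-likelihood test at an adjusted p of 0.05, where 0% of the 14031 tested genes passed, and the adjusted p of the 9 lay between 0.343 and 0.756. At an unadjusted p of 0.05, 3 members were higher in TG livers, namely Mmp2, Lox and Loxl2, beside 8.68% of all tested genes. No member was lower at that threshold, beside 2.37% of all tested genes. Without the first WT liver 5 members were higher at that threshold, beside 6.99% of all genes tested there. Without the third WT liver there were 6, with Timp1 tested in that fit and among them, beside 10.2%. In that fit Timp1, Lox and Mmp13 entered the test through their TG counts alone. Their reads in the first and second WT livers were 3 and 4, 4 and 0, and 3 and 6, so this count supports nothing by itself. DESeq2, run as an alternative, gave an adjusted p under 0.05 to Mmp2 and Loxl2 among the 8 members for which it gave one, beside 2.74% of genes that it called higher, and limma voom to none. All 3 TG values lay above all 3 WT values for 5 of the 10 genes, which were Mmp2, Timp1, Timp2, Lox and Loxl2. Of the 9 tested members, which leave out Timp1, 4 did so, beside 9.22% of all tested genes. Over the 10 genes the number was 7 with scaling by library size only, which added Mmp14 and Loxl1. The share over all genes was not computed under that scaling, so the rise is no result about the members. With 3 livers in each group, an exact permutation test has 0.1 as its smallest p, so it was not run on single genes. Fold changes were above 0 for 8 of the 9 tested members, beside 46.2% of all tested genes, and the median was 0.87 on the log2 scale over the 9, beside -0.03 over all tested genes. Lox entered the test through its TG counts alone, so these counts over the tested members support nothing by themselves. With scaling by library size only, the median over all genes was 0.09 in place of -0.03.

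**Figure D1:**
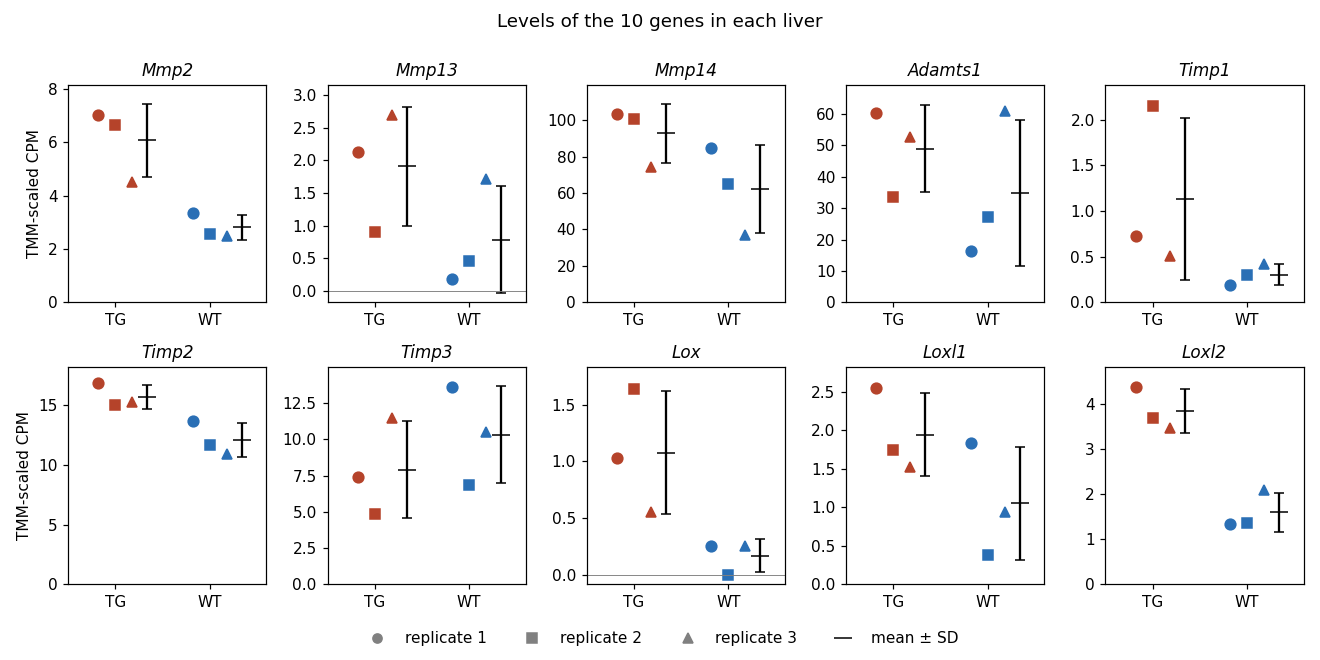
Each panel plots 1 gene, with TMM-scaled CPM on the vertical axis, TG livers left of WT livers, 1 symbol per replicate and the mean ± SD beside them. Mmp2, Timp1, Timp2, Lox and Loxl2 show no overlap between TG and WT livers, whereas Mmp13, Mmp14, Adamts1, Timp3 and Loxl1 do.

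The 4 proteases share a catalytic site in which 3 histidines hold a zinc ion and a glutamate takes part in the cut. The coding sequence of that site is printed because it shows how the 3 matrix metalloproteinases and the more distant Adamts1 relate. It is read 5′ to 3′ on the coding strand from GENCODE transcripts of the mm10 build, with the codons of the 3 histidines and the glutamate in capitals.
Mmp2, chr8:92839279-92839311, plus strand: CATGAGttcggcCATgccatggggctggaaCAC
Mmp13, chr9:7276573-7276605, plus strand: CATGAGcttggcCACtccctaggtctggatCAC
Mmp14, chr14:54437627-54437659, plus strand: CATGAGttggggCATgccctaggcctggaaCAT
Adamts1, chr16:85799191-85799545, minus strand, with an intron left out: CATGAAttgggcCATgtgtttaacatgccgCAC
Mmp2 and Mmp14 shared 27 of the 33 bases (81.8%), and each shared 25 (75.8%) with Mmp13. Adamts1 shared between 17 (51.5%) and 20 (60.6%) with the other 3. The sites were found by a pattern that fixes the 3 histidines and the glutamate, so part of this identity follows from the search.

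Mmp2 (ENSMUSG00000031740, chr8:92827291-92853420), which encodes gelatinase A, an enzyme that cuts denatured collagen and basement membrane, was the only 1 of the 4 proteases whose groups did not overlap with TMM scaling. It had 7.04, 6.67 and 4.52 CPM in TG livers, from 116, 118 and 89 reads, against 3.37, 2.57 and 2.50 CPM in WT livers, from 53, 34 and 48 reads. Every TG liver was above every WT liver, and the lowest of the TG livers was the third. The means were 6.08 ± 1.36 CPM in TG livers and 2.81 ± 0.481 CPM in WT livers (mean ± SD, 3 mice a group). Its log2 fold change was 1.11 with a standard error (SE) of 0.31, an unadjusted p of 0.0075 and an adjusted p of 0.343 by edgeR. With DESeq2 the adjusted p was 0.0441. Over the 15 alternative settings the log2 fold change ran between 0.99 and 1.26, the unadjusted p stayed at or under 0.0329, and the adjusted p ran between 0.0441 and 0.930.

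Mmp14 (ENSMUSG00000000957, chr14:54431612-54445364) encodes the membrane protease MT1-MMP, which cuts fibrillar collagen at the cell surface and activates the Mmp2 precursor there. It had 103.6, 100.5 and 74.2 CPM in TG livers, against 85.0, 64.7 and 37.0 CPM in WT livers. The first WT liver was above the third TG liver, so the groups overlapped. The means were 92.7 ± 16.2 CPM in TG livers and 62.2 ± 24.1 CPM in WT livers (mean ± SD, 3 mice a group). A log2 fold change of 0.58 (SE 0.31) had an unadjusted p of 0.102 and an adjusted p of 0.559 by edgeR. Without the first WT liver it was 0.87, with an unadjusted p of 0.0270 and an adjusted p of 0.521. Without the third WT liver it was 0.30, with an adjusted p of 0.536.

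Mmp13 (ENSMUSG00000050578, chr9:7272514-7283331) encodes the main interstitial collagenase of rodents. It had 2.13, 0.904 and 2.69 CPM in TG livers, from 35, 16 and 53 reads, against 0.191, 0.454 and 1.72 CPM in WT livers, from 3, 6 and 33 reads. The third WT liver exceeded the second TG liver, and the other 2 WT livers were below all 3 TG livers. The log2 fold change of 1.23 had an SE of 0.78, an unadjusted p of 0.154 and an adjusted p of 0.613 by edgeR. Leaving out the third WT liver gave 2.57, with an unadjusted p of 0.0119 and an adjusted p of 0.262, and leaving out the first WT liver gave 0.78. Of the 15 alternative settings, only the 1 without the third WT liver had an unadjusted p under 0.05. The size moved with other libraries as well, and was 0.87 without the third TG liver.

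Adamts1 (ENSMUSG00000022893, chr16:85793827-85803113) encodes a secreted protease that cuts large proteoglycans such as versican and aggrecan. Its level was 60.5, 33.6 and 52.7 CPM in TG livers, against 16.3, 27.1 and 61.1 CPM in WT livers. The highest of the 6 livers was the third WT liver and the lowest was the first WT liver, with the TG livers between them. The log2 fold change was 0.49 (SE 0.47), with an unadjusted p of 0.329 and an adjusted p of 0.748 by edgeR. Leaving out the third WT liver gave 1.18, with an unadjusted p of 0.0115 and an adjusted p of 0.262. Leaving out the first WT liver gave 0.15, with an adjusted p of 0.922.

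Mmp13 and Adamts1 both had 3 livers on top, TG livers 1 and 3 and WT liver 3, and both were lowest in the first WT liver. Mmp12, the macrophage elastase, had the same livers on top, with 32.4, 12.4 and 33.5 CPM in TG livers, against 6.73, 1.51 and 16.9 CPM in WT livers, a log2 fold change of 1.63 and an adjusted p of 0.487 by edgeR. Fosl1, a subunit of the transcription factor AP-1 that was chosen here after its values were seen, had 67, 7 and 108 reads in TG livers, against 4, 10 and 77 reads in WT livers. The other AP-1 genes Fos, Fosb, Fosl2, Jun, Junb and Jund did not have these livers on top. Jun, another subunit, stood at 507, 549 and 490 CPM in TG livers, against 47.4, 977 and 683 CPM in WT livers, so the first WT liver was low in this gene as in Fos. The part of these genes in the levels of Mmp13 and Adamts1 was not tested.

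The bases just upstream of the start of Mmp13 and Adamts1 are printed because the 2 genes had the same 3 livers on top. They come from the RefSeq promoter table (GRCm38, the assembly named mm10 by UCSC), which held 6 of the 10 members, namely these 2, Mmp14 and the 3 TIMPs. Shown 5′ to 3′ on the gene's strand are the 250 bases before the start, with capitals for matches, on either strand, to the AP-1 motif TGANTCA, the TATA motif TATAAA and the GC box GGGCGG, none of which overlap here.
Mmp13, chr9:7272264-7272513, plus strand: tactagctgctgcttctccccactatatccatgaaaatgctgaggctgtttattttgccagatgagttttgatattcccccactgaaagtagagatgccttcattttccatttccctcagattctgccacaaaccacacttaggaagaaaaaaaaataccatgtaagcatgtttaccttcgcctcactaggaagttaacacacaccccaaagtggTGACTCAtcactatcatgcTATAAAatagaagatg
Adamts1, chr16:85803114-85803363, minus strand: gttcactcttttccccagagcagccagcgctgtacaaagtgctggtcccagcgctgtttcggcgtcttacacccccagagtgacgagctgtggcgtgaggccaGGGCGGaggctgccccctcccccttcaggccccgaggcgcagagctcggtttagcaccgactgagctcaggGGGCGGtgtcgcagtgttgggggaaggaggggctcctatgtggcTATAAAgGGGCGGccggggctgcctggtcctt
The Mmp13 window held 1 AP-1 match at bases -35 to -29 from the start and 1 TATA match at -16 to -11. The Adamts1 window held no AP-1 match, 1 TATA match at -32 to -27, and 3 GC boxes. Among 32851 windows of this length in the table, 6.75% held the AP-1 letters, 12.4% the TATA letters and 32.7% the GC box. Mmp14 had 2 GC boxes and each TIMP had 1, with neither of the other motifs in these 4 windows. Such matches are letters in a window and say nothing of binding in these livers.

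**Figure D2:**
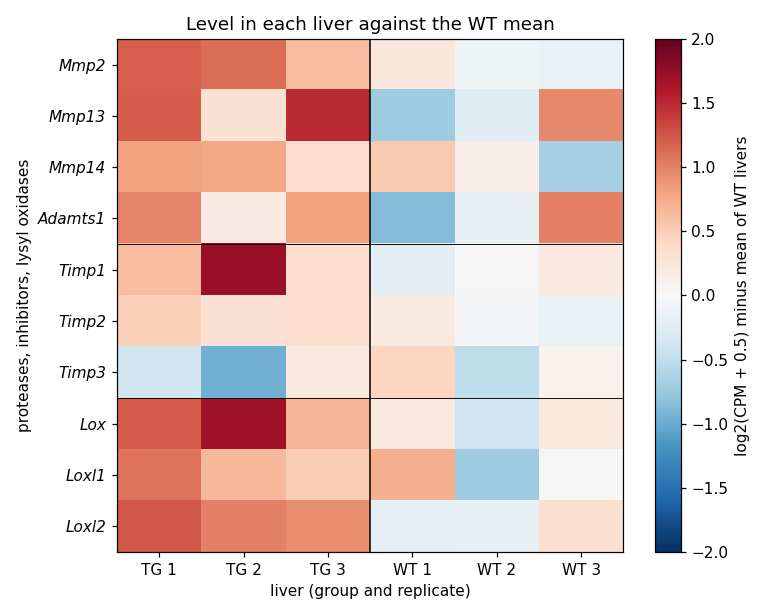
The heat map shows each gene (rows, in the order proteases, inhibitors, lysyl oxidases) in each liver (columns, TG left of WT) as log2(CPM + 0.5) minus the mean of the WT livers. Mmp13 and Adamts1 are high in the third WT liver and low in the first, while Lox and Timp1 are highest in the second TG liver.

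TIMPs block metalloproteinases through their amino end, whose first cysteine reaches the zinc ion of the protease. The coding sequence of the first stretch of the mature inhibitors is printed to show how far the 3 members differ there, 5′ to 3′ on the coding strand from GENCODE transcripts of mm10, with cysteine codons in capitals.
Timp1, chrX:20871111-20871149, plus strand: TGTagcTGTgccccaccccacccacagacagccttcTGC
Timp2, chr11:118354974-118355012, minus strand: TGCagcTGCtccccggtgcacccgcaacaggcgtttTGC
Timp3, chr10:86300923-86300961, plus strand: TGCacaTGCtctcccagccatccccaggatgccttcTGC
These stretches were found by searching for a pattern that fixes the 3 cysteines and some other residues. The shared places of the cysteine codons therefore follow from the search. Each pair shared 25 of 39 bases (64.1%), part of which follows from the search as well.

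Timp2 (ENSMUSG00000017466, chr11:118301069-118355740), which both inhibits Mmp2 and helps Mmp14 to activate its precursor, showed little spread within either group. It had 16.8, 15.0 and 15.3 CPM in TG livers, against 13.65, 11.65 and 10.87 CPM in WT livers. No TG liver was as low as any WT liver, with means of 15.7 ± 0.988 CPM in TG livers and 12.06 ± 1.44 CPM in WT livers (mean ± SD, 3 mice a group). Its log2 fold change was 0.38 (SE 0.18), with an unadjusted p of 0.0708 and an adjusted p of 0.502 by edgeR. In none of the 15 alternative settings was the unadjusted p under 0.0530.

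Timp1 (ENSMUSG00000001131, chrX:20870166-20874735), the inhibitor that is commonly measured as a marker of liver scarring, was close to the limit of detection. It had 12, 38 and 10 reads in TG livers, or 0.729, 2.15 and 0.508 CPM, against 3, 4 and 8 reads in WT livers, or 0.191, 0.303 and 0.416 CPM. A count of 3 corresponds to between 0.152 and 0.227 CPM in these libraries, so the first WT liver was at that floor. The second TG liver stood above the other 5, and the third TG liver lay just above the third WT liver. The means were 1.13 ± 0.890 CPM in TG livers and 0.303 ± 0.113 CPM in WT livers (mean ± SD, 3 mice a group). Without the filter on low counts its log2 fold change was 1.83, with an unadjusted p of 0.0200 and an adjusted p of 0.479 by edgeR. Syn1, a neuronal gene that spans Timp1 on the opposite strand without sharing exon bases, had 39, 57 and 14 reads in TG livers, against 3, 0 and 15 reads in WT livers. Without a stated strand setting, reads of the 2 genes outside their exons cannot be told apart.

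Timp3 (ENSMUSG00000020044, chr10:86300372-86349506), a matrix-bound inhibitor that also blocks ADAM17 and ADAMTS proteases, was the only tested member with a fold change below 0. It had 7.41, 4.86 and 11.5 CPM in TG livers, against 13.6, 6.88 and 10.5 CPM in WT livers. The groups overlapped throughout. The means were 7.92 ± 3.34 CPM in TG livers and 10.3 ± 3.36 CPM in WT livers (mean ± SD, 3 mice a group), and the log2 fold change of -0.38 (SE 0.38) had an unadjusted p of 0.347 and an adjusted p of 0.756 by edgeR. It was -0.78 without the third TG liver and -0.12 without the second TG liver. Of the exon bases of Timp3, 1733 (21.3%) are also exon of Syn3 on the other strand, which had between 13 and 24 reads in TG livers and between 11 and 20 in WT livers, beside 86 to 226 reads of Timp3 in TG livers and 91 to 214 in WT livers.

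Lysyl oxidases bind copper through a short run of histidines. The coding sequence of that run is printed for the 2 LOX-like members to show how close they are, 5′ to 3′ on the coding strand from GENCODE transcripts of mm10 with an intron left out of each, and with histidine codons in capitals.
Loxl1, chr9:58293720-58294375, minus strand: tggCATagctgtCACcaaCATtacCAC
Loxl2, chr14:69682322-69689037, plus strand: tggCACgactgcCACaggCACtacCAC
Both were found by searching for a pattern that fixes the 4 histidines and some other residues. The shared places of the histidine codons therefore follow from the search. The 2 stretches shared 19 of 27 bases (70.4%), part of which follows from the search as well.

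Loxl2 (ENSMUSG00000034205, chr14:69609068-69695834), a cross-linking enzyme of fibrillar and basement membrane collagen, separated the groups with little spread. It had 4.37, 3.67 and 3.45 CPM in TG livers, from 72, 65 and 68 reads, against 1.33, 1.36 and 2.08 CPM in WT livers, from 21, 18 and 40 reads. All TG livers were above all WT livers, with means of 3.83 ± 0.480 CPM in TG livers and 1.59 ± 0.423 CPM in WT livers (mean ± SD, 3 mice a group). Its log2 fold change was 1.26 (SE 0.34), with an unadjusted p of 0.00637 and an adjusted p of 0.343 by edgeR. DESeq2 gave an adjusted p of 0.0399. Over the 15 alternative settings the log2 fold change ran between 1.14 and 1.50, the unadjusted p stayed at or under 0.0274, and the adjusted p ran between 0.0399 and 0.930.

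Lox (ENSMUSG00000024529), the founding lysyl oxidase, was the scarcest member per length of exon. It had 17, 29 and 11 reads in TG livers, or 1.03, 1.64 and 0.559 CPM, against 4, 0 and 5 reads in WT livers, or 0.254, 0 and 0.260 CPM. All 3 TG livers were above all 3 WT livers. No read fell on Lox in the second WT liver, which allows up to 3 reads, or 0.227 CPM, there. The means were 1.08 ± 0.541 CPM in TG livers and 0.171 ± 0.148 CPM in WT livers (mean ± SD, 3 mice a group). A log2 fold change of 2.52 (SE 0.80) had an unadjusted p of 0.0151 and an adjusted p of 0.354 by edgeR, and DESeq2 gave no adjusted p for it. Its unadjusted p was 0.0596 without the second TG liver, where the log2 fold change was 2.08.

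Loxl1 (ENSMUSG00000032334, chr9:58287738-58313186), which acts on elastin, had 2.55, 1.75 and 1.52 CPM in TG livers, against 1.84, 0.378 and 0.936 CPM in WT livers. The first WT liver lay among the TG livers and the other 2 WT livers lay below them. The log2 fold change was 0.87 (SE 0.57), with an unadjusted p of 0.167 and an adjusted p of 0.625 by edgeR. Leaving out the first WT liver gave 1.51, with an unadjusted p of 0.0342 and an adjusted p of 0.521, and leaving out the second WT liver gave 0.49, with an adjusted p of 0.863.

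**Figure D3:**
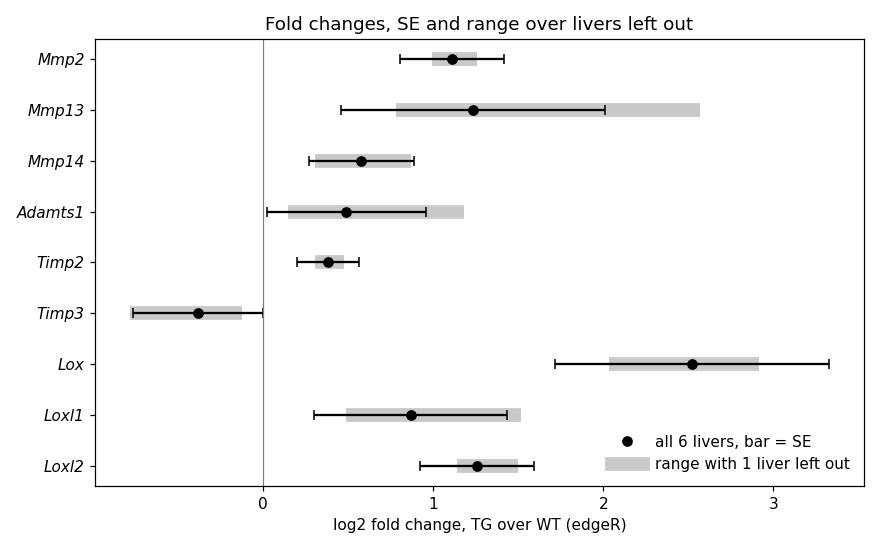
Points give the log2 fold change of TG over WT livers from edgeR for the 9 tested genes, black bars the SE, and grey bands the range when 1 liver at a time is left out. The bands of Mmp2, Timp2 and Loxl2 are narrow, while that of Mmp13 runs between 0.78 and 2.57 and that of Adamts1 between 0.15 and 1.18.

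Levels of different genes were compared as CPM per kilobase of merged exons. Mmp14 led with 15.6 ± 2.71 in TG livers and 10.4 ± 4.04 in WT livers (SD, n = 3 each). Adamts1 followed with 9.23 ± 2.61 in TG livers and 6.56 ± 4.41 in WT livers, which overlaps Mmp14 in WT livers. Timp2 was next with 4.03 ± 0.254 in TG livers and 3.10 ± 0.369 in WT livers, and it led the inhibitors in every liver. In TG livers the next mean was Mmp2 at 1.80 ± 0.404, and in WT livers it was Timp3 at 1.27 ± 0.412, which stood at 0.972 ± 0.410 in TG livers. Mmp2 was below Timp1 in the second TG liver (1.98 against 2.42) and below Timp3 in the third (1.34 against 1.41). Timp1 averaged 1.27 ± 1.00 in TG livers and 0.341 ± 0.127 in WT livers, and Mmp2 averaged 0.834 ± 0.143 in WT livers. Mmp13, Loxl2 and Loxl1 had means between 0.589 and 0.713 in TG livers and between 0.294 and 0.319 in WT livers, and did not differ among each other beyond their spread. Lox was lowest, with 0.225 ± 0.113 in TG livers and 0.0359 ± 0.0311 in WT livers.

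The per-length ratio of an inhibitor to a protease it is known to act on was computed for 4 pairs with Timp2 or Timp3. Timp2 to Mmp2 stood at 2.07, 1.94 and 2.93 in TG livers, against 3.51, 3.92 and 3.77 in WT livers. All TG ratios were below all WT ratios, with means of 2.31 ± 0.536 in TG livers and 3.73 ± 0.207 in WT livers (SD, n = 3 each). For Timp2 to Mmp14 the means were 0.264 ± 0.0457 in TG livers and 0.324 ± 0.110 in WT livers, and the groups overlapped. Timp3 to Mmp14 overlapped as well, at 0.0670 ± 0.0410 in TG livers and 0.134 ± 0.0667 in WT livers. Timp3 to Adamts1 stood at 0.0797, 0.0941 and 0.142 in TG livers, against 0.544, 0.166 and 0.112 in WT livers, with overlap. Its mean was 0.105 ± 0.0325 in TG livers and 0.274 ± 0.236 in WT livers, and the WT mean was 0.139 without the first WT liver. These are ratios of RNA levels and carry no test.

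Other genes of matrix turnover were described from 10 lists, in which no gene passed edgeR's adjusted p and none was lower in TG livers at an unadjusted p of 0.05. DESeq2 called 3 collagens, 2 genes each of the cross-linking, regulator and substrate lists and 1 metalloproteinase higher. Over all genes with a DESeq2 adjusted p, 2.74% were called higher. Shares over all tested genes, against which the counts of each list are to be read, were 46.2% with a fold change above 0, 8.68% higher at an unadjusted p of 0.05 and 9.22% with all TG above all WT livers. Of 11 collagens, all 11 had fold changes above 0, 7 were higher at an unadjusted p of 0.05 and 8 separated the groups, with a median log2 fold change of 0.90. Col1a2, a chain of type I collagen, had 25.6, 21.1 and 17.4 CPM in TG livers, against 9.78, 6.58 and 13.1 CPM in WT livers, with a log2 fold change of 1.12 (SE 0.28, adjusted p = 0.343). Col3a1, the type III collagen that Mmp13 and Mmp14 cut, had 38.0, 29.7 and 26.9 CPM in TG livers, against 11.7, 6.81 and 20.8 CPM in WT livers. Both collagens were above all WT levels in every TG liver, as Mmp2 and Loxl2 were.

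Among 14 tested genes of cross-linking and collagen maturation outside the members, 12 had fold changes above 0 and 5 were higher at an unadjusted p of 0.05, beside 46.2% and 8.68% of all tested genes, with a median of 0.41. The remaining lysyl oxidases were in that group. Loxl4 had 2.37, 5.65 and 2.18 CPM in TG livers, against 0.635, 1.14 and 1.56 CPM in WT livers, with a log2 fold change of 1.60 (SE 0.53, adjusted p = 0.371). Loxl3 had 3.70, 4.75 and 1.98 CPM in TG livers, against 1.46, 0.454 and 1.77 CPM in WT livers. For both, the 3 TG livers were above the 3 WT livers. Tgm2, a transglutaminase that links matrix proteins by another bond, had 163, 201 and 122 CPM in TG livers, against 70.7, 92.2 and 86.5 CPM in WT livers (log2 fold change 0.96, SE 0.23, adjusted p = 0.343).

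Of the 18 other matrix metalloproteinases, 7 were tested, all 7 had fold changes above 0, and 2 were higher at an unadjusted p of 0.05. These were Mmp27, with 7.71, 14.4 and 2.24 CPM in TG livers, against 1.14, 1.06 and 1.87 CPM in WT livers, and Mmp9, the gelatinase of leukocytes, with 3.34, 4.75 and 0.813 CPM in TG livers, against 1.33, 0.303 and 0.364 CPM in WT livers. Both were highest in the second TG liver, as were Lox, Timp1 and the summed macrophage and neutrophil markers. Of 11 tested ADAMTS proteases other than Adamts1, 10 had fold changes above 0 and 3 were higher at that threshold (median 0.68), and of 8 ADAM proteases 7 and 4 (median 0.65). Adamts3 entered the test through its TG counts alone, with 11, 13 and 11 reads, against 4, 5 and 6 in WT livers. The counts over the ADAMTS list therefore support nothing by themselves. Of 6 other tested protease inhibitors, 5 had fold changes above 0 and none was higher at that threshold (median 0.39). Timp4 had 0, 22 and 2 reads in TG livers and 0 in every WT liver, and was not tested. Of 9 genes of the plasminogen system and of precursor activation, 5 had fold changes above 0 and 2 were higher, the plasminogen activator Plat and the urokinase receptor Plaur (median 0.01).

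Among 12 elastic fibre genes 10 had fold changes above 0 and 1 was higher at an unadjusted p of 0.05 (median 0.41). Eln, the elastin substrate of Lox and Loxl1, had 3.52, 1.19 and 4.47 CPM in TG livers, against 2.60, 1.74 and 2.13 CPM in WT livers, with overlap. Of 10 tested substrates and shed matrix proteins, 9 had fold changes above 0 and 3 were higher (median 0.43), and of 14 AP-1 and matrix regulators 9 and 4 (median 0.50). Tgfb1, a growth factor known to raise collagen and lysyl oxidase expression in stellate cells, had 20.2, 31.6 and 11.5 CPM in TG livers, against 9.14, 5.67 and 8.79 CPM in WT livers (log2 fold change 1.42, SE 0.39, adjusted p = 0.343).

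**Figure D4:**
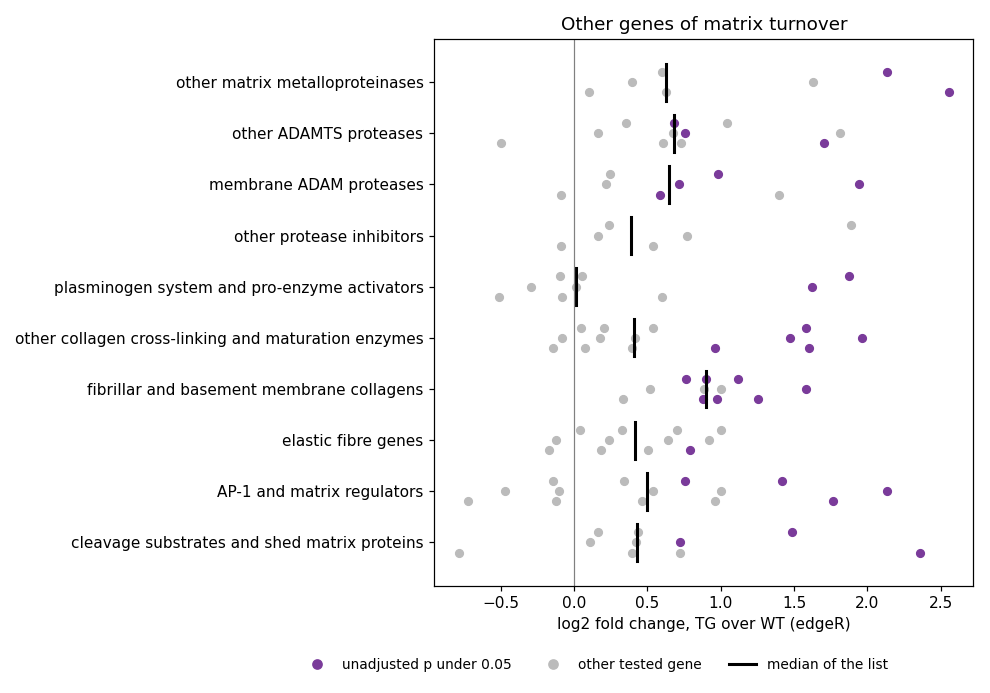
Each point is 1 tested gene of a list (rows), placed by its log2 fold change of TG over WT livers from edgeR, with purple for an unadjusted p under 0.05 and a bar for the list's median. Collagens have the highest median (0.90) and plasminogen system genes the lowest (0.01).

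Stellate cell and fibroblast markers, of which Dcn and Lum are also in the list of substrates, summed to 469, 412 and 465 CPM in TG livers, against 423, 333 and 401 CPM in WT livers. Of the 14 tested, 13 had fold changes above 0, beside 46.2% of all tested genes. At an unadjusted p of 0.05, 3 were higher, beside 8.68% of all tested genes. The median was 0.28 on the log2 scale, and neither edgeR nor DESeq2 called any of them at an adjusted p of 0.05. Endothelial markers summed to 228, 226 and 255 CPM in TG livers, against 275, 89.2 and 208 CPM in WT livers, and the second WT liver was the lowest here as for Loxl1 and Lox. Cholangiocyte markers summed to between 54.2 and 73.0 CPM in TG livers and between 49.4 and 58.7 CPM in WT livers. B and plasma cell markers summed to between 148 and 261 CPM in TG livers and between 121 and 259 CPM in WT livers, and T and NK cell markers to between 2.39 and 7.06 CPM in TG livers and between 2.12 and 3.80 CPM in WT livers. None of the markers was at 0 in all 6 libraries. The part of cell numbers in the levels of the 10 genes was not tested.

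Lox lies on chromosome 18 at bases 52516067 to 52529867 of mm10, on the minus strand, and shares 0.6% of its exon bases with an antisense gene. Loxl2 shares 5.6% of its exon bases with the antisense gene Gm27177, which had 0, 2 and 1 reads in TG livers and 0 in every WT liver. Mmp2, Mmp13, Mmp14, Adamts1 and Loxl1 shared no span with another annotated gene.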

How the data were processed

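The authors deposited raw counts of reads per Ensembl gene, as whole numbers, for each library. TopHat, Cufflinks and the build mm10 are named, without versions, per the submitters' processing notes. For the counting step, the program, annotation and strand mode are not stated in these sources. The labels' molecule field names genomic DNA while the protocols describe Trizol RNA and an RNA library kit, so the counts were treated as RNA. Symbols matched 52403 of 52550 identifiers, and 3 names in the gene lists matched none.

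Libraries held 16016640 to 17463329 counts, and a count of 3 was taken as the floor. Floors cover counting error only. Groups came from the genotype labels, and the mice are separate animals per the series' design text. Low genes were removed with filterByExpr, leaving 14031, and TG was compared with WT by edgeR's quasi-likelihood test (edgeR 4.0.16, R 4.3.3, TMM, robust, two-sided, Benjamini-Hochberg over all tested genes, threshold 0.05; common biological coefficient of variation 0.329). The fits were tested on simulated data. Alternatives were other scalings, no filter, a mean of at least 1 CPM, no robust fit, DESeq2 1.42.0, limma voom 3.58.1, a replicate block and leaving out each library.

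The members and lists were chosen with earlier results of these data known. Named genes were all members, up to 3 tested genes of each list with the smallest unadjusted p, and a set of well-known matrix genes. Fosl1 was added outside this rule after its values were seen. Only some of them are given values. Promoters came from RefSeq, and coordinates and coding stretches from GENCODE M21.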

Additional observations from a re-analysis of the deposited data

How the results depend on the processing

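The direction of the 9 tested members held in each of the 15 alternatives that tested them (14 for Lox, which a minimum mean of 1 CPM left out). After adjustment edgeR called 0 genes (1551 had an unadjusted p under 0.05), DESeq2 called 390 and limma voom 1. With 1 library left out the edgeR count lay between 0 and 305, and the count of 305 came without the third TG liver. Members past an adjusted p numbered 0 by edgeR and limma voom and 2 by DESeq2. Members higher at an unadjusted p of 0.05 numbered 3 in the main test, beside 8.68% of all tested genes. They numbered 4 with library size only (Mmp14 added), beside 9.37%, and 4 with no filter (Timp1 added), beside 5.91%. With a mean of at least 1 CPM (Lox left out) they numbered 2, beside 9.07%. With 1 library left out they numbered between 2 and 6, beside shares between 3.955% and 10.16%. There were 5 without the first WT liver, beside 6.99%, and 6 without the third WT liver, beside 10.16%. The 6 include Timp1, Lox and Mmp13, which entered that fit through their TG counts alone. Members with all TG above all WT values numbered 5, and 7 with library size only. With 1 library left out they numbered between 5 and 7, but leaving out a value cannot lower this count. Shares over all genes were not computed for these alternatives. The cause of the shifts between settings was not tested. With the replicate block, edgeR called 0 genes at an adjusted p. There 4 members, Mmp14 added, were higher at an unadjusted p of 0.05, beside 6.14% of all tested genes. After each group's mean was subtracted, same-numbered livers correlated at 0.15, -0.22 and 0.10. With 3 livers in each group, such values cannot decide whether same-numbered livers shared a litter, cage or day. The labels state no such sharing, so the main test had no block. Lox, Timp1 and Mmp13 rest on few reads, and differences between their low levels are limited by depth.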
